A study of Ursus arctos with 5 samples.

Results

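Transcripts of calcium handling and ion channel genes were followed in the gastrocnemius, the main calf muscle, of grizzly bears sampled active in October and hibernating in February. The members were all annotated transcripts whose gene symbol belongs to the voltage-gated calcium channels (CACN), ryanodine and inositol trisphosphate receptors (RYR, ITPR), calcium and sodium-potassium pumps (ATP2A, ATP2B, ATP1A, ATP1B), the stores and junction of the sarcoplasmic reticulum (CASQ, JPH, TRDN, SRL, HRC), store-operated entry (STIM, ORAI), calmodulin, its kinases and calcineurin (CALM, CAMK, PPP3), or the potassium, sodium and chloride channel families (KCN, SCN, CLCN). The rule reads the symbols and no measured value, although the families were picked with earlier results of these data known. They were 95 transcripts of 45 genes, out of 9093 annotated transcripts of 4873 genes. Of the 45 genes, 12 belong to calcium release, 6 to calcium uptake and entry, 15 to ion channels, 6 to the sodium-potassium pump and 6 to calmodulin signalling.

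The material came from 2 captive grizzly bears, and each gave 1 single-end RNA-seq library per state. The labels hold 1 single-end sample for each state, and the 2 bears in it are separated only by the columns of the deposited table, on which the number of 2 libraries per state rests. One bear is the subadult and the other the adult of the study, although the labels state an adult of 10 years throughout. Feeding had stopped in early November and resumed in March, so the hibernating biopsies come from fasting and largely inactive animals. Biopsies were taken under anaesthesia, with a lower dose in hibernation, so dose and state cannot be told apart. Likewise age and individual cannot be told apart with 1 bear per age. Abundance is given as RPKM (reads per kilobase of transcript and per mega, M, of aligned reads), as deposited by the authors.

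In skeletal muscle, an action potential carried by the sodium channel SCN4A spreads into the T-tubules, where the L-type channel CACNA1S senses voltage and opens the ryanodine receptor RYR1 of the sarcoplasmic reticulum. Calcium then leaves the store, binds troponin and is pumped back by the SERCA pumps, ATP2A1 in fast fibres and ATP2A2 in slow fibres. Chloride and potassium channels and the sodium-potassium pump reset the membrane, while calmodulin passes the calcium signal on to its kinases and to the phosphatase calcineurin.

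The 4 libraries held 44.6 to 54.1 M (mega) aligned reads, as recovered from the deposited RPKM and transcript lengths. The members took 2.47% to 2.90% of the reads on annotated transcripts. The lowest read count of any member transcript in a library was 22 to 45, not always in the same transcript. As a check of the tissue, the adult fast and slow myosin genes MYH2 and MYH7 stood at 2755 to 3863 and 1295 to 3004 RPKM. The table lists transcripts at 1 RPKM or more in every library, so a gene under this level in even 1 library was not analysed here. Of 192 brown bear genes with a symbol of these families in the RefSeq table (assembly UrsArc2.0), 42 had an annotated transcript, with 12 of 41 for release but 9 of 92 for potassium channels. CASQ1, JPH2, CACNB1, CALM2 and CAMK2D were among the others and were not analysed here. Of the 26614 listed transcripts 17521 carry no gene name, so a missing symbol does not show a level below 1 RPKM. The active subadult library stood apart in some of the genes listed for fat cells and connective tissue. FASN was at 113 RPKM, SCD at 189 RPKM and COL1A1 at 193 RPKM there. The other libraries held 2.96 to 5.79, 2.79 to 10.1 and 6.79 to 10.95 RPKM of these genes. FBN1 was also highest there, at 24.9 RPKM, but PLIN4, at 71.2 RPKM, lay within the range of the other libraries. COL3A1 and COL1A2, at 116 and 2.59 RPKM, were lowest there. Values are therefore given for each bear, and adult values are free of that library. In such bulk samples, fewer cells of a type and less RNA per cell cannot be told apart.

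The comparison of states asked which of these genes differ between hibernating and active muscle. In both bears 6 of the 45 genes were at least 1.5-fold higher in hibernation, among them CACNA1C, CLCN3, KCNJ11, CASQ2 and CAMKV. None was 1.5-fold lower in both. The 6 are 13.3% of the member genes, where 5.21% of all annotated genes were 1.5-fold higher and 1.31% 1.5-fold lower in both bears. All 6 lie below a mean of 10 RPKM, which holds for 28 of the 45 member genes.

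By limma's test on log2(RPKM + 0.5), adjusted by Benjamini-Hochberg over all 9093 transcripts, no member reached an adjusted p of 0.05, and the share over all annotated transcripts was 0.0%. Before adjustment 8 of the 95 transcripts were below 0.05, all higher in hibernation, against 9.08% of all transcripts. Among these 8 are transcripts of CLCN3, CASQ2, CAMKV, SRL and ORAI1 and both transcripts of KCNJ11. Without the hibernating adult library, 3 members passed limma's adjusted test, among them CACNA1C with a log2 difference of 2.74 (adjusted p = 0.00246) and CLCN3 with 1.25 (adjusted p = 0.0464), among 92 of all transcripts, and the lone hibernating library was then assumed to vary like the active ones. The unadjusted count was 14 (14.7%) without that library, against 16.2% of all transcripts, and 3 (3.16%) without the active subadult library, against 4.49%. For a single gene, 2 libraries against 2 allow no exact two-sided permutation p below 0.333.

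The second measure was a score built after NOISeq, the study's method, which sets each transcript's difference between states against the differences between the bears within a state. At the study's threshold of 0.8, 2 members were higher, with CACNA1C at 0.932, and 0 lower. Over all annotated transcripts 2.1% were higher and 1.51% lower, so the members' share of 2.11% higher is near the background. At 0.9 CACNA1C alone remained.

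Counting without a fold limit, 19 of the 45 genes were higher in hibernation in both bears and 6 lower in both, while 20 differed in direction between the bears. Over all annotated genes 48.7% were higher in both and 16.1% lower in both, against 42.2% and 13.3% of the members. The median log2 difference was 0.08 for the members and 0.15 for all genes. This split depends on the scaling. After median-ratio scaling 13 member genes were higher and 13 lower in both bears, and after upper-quartile scaling 12 and 16, while the shares over all genes became 30.4% and 31.2%, then 27.9% and 34.6%. The median of all genes moved from 0.15 to -0.003 and -0.04. The 6 genes lower in both bears stayed so under both scalings. Of the 19 higher in both, 12 stayed so under both, among them CACNA1C, CASQ2, HRC, SRL, ATP2A2, ORAI1, CLCN3, KCNJ11, KCNQ5, ATP1B3 and CAMKV, while CACNG6, TRDN, STIM1, SCN4A, CAMK2A, CAMK2G and CALM3 did not under at least 1 of them. Of the transcripts, 27 of 95 (28.4%) had both hibernating libraries above both active ones and 6 (6.32%) had both below, where all annotated transcripts gave 34.6% and 8.8%. The 27 belong to 16 genes, with 7 overlapping transcripts of CAMK2G among them, and the 6 to JPH1, ATP1B4 and KCNAB1. Transcripts of a gene share reads, so they do not count as separate measurements. Below, each gene is described by its transcript with the most reads, and the other 50 transcripts, of 20 genes, had log2 differences of -0.43 to 0.97 and a score of 0.746 at most.

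**Figure D1:**
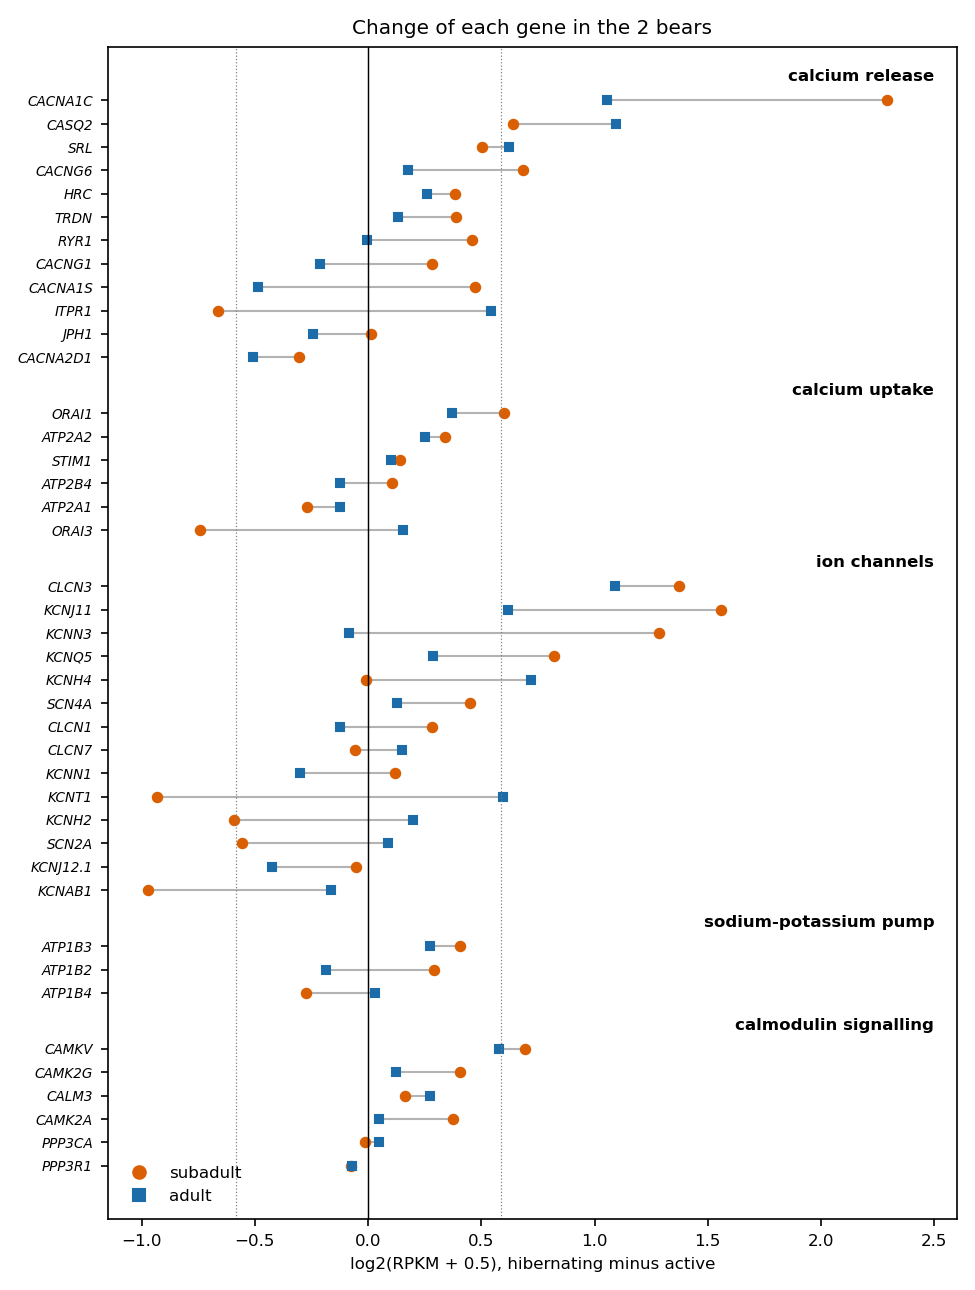
Difference in log2(RPKM + 0.5) between hibernating and active muscle (x axis) for 41 of the 45 genes by class, with a circle for the subadult, a square for the adult and dotted lines at 1.5-fold on this scale. The subadult reaches past 2.2 in CACNA1C, while most other genes of both bears lie within 1 of zero.

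Of the 12 calcium release genes, 6 were higher in both bears, 1 was lower in both and 5 differed in direction, with a median log2 difference of 0.24 (0.42 in the subadult and 0.15 in the adult), which was 0.04 with upper-quartile scaling. With either other scaling 4 release genes were higher and 2 lower in both. Among the 7 genes of receptors, junction and store, 4 were higher in both bears as deposited and none was lower in both. Among the 5 channel subunit genes, 2 were higher and 1 was lower in both.

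The release channel RYR1 stood at 406 RPKM hibernating and 295 active in the subadult, and at 605 and 607 RPKM in the adult. The adult values are level and the 2 states overlap. CACNA1S, the voltage sensor that is coupled to it, took opposite directions, with the subadult at 297 RPKM active and 411 hibernating and the adult at 519 active and 371 hibernating. Its mean log2 difference was -0.01 with an SE of 0.35 (limma, adjusted p = 0.998). For the leading transcripts, the ratio of RYR1 to CACNA1S was 0.99 in both subadult libraries. The adult had 1.17 active and 1.63 hibernating. An RYR1 transcript of 906 bases was at 57.2 RPKM hibernating and 76.9 active in the adult, and at 63.9 and 42.7 in the subadult. That of 646 bases was at 113 and 103 RPKM in the adult and at 74.6 and 51.6 in the subadult. The adult ratio thus depends on the RYR1 transcript taken.

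The other channel subunits did not share a direction. CACNG1, the gamma subunit specific to skeletal muscle, measured 79.2 and 65.0 RPKM in the hibernating and active subadult and 67.7 and 78.6 in the adult. CACNG6, a related gamma subunit, was higher in hibernation in both bears, at 15.1 against 9.23 RPKM and at 18.6 against 16.4 RPKM. CACNA2D1, the alpha2-delta subunit that takes channels to the membrane, was the only release gene lower in both, at 9.41 against 11.7 RPKM in the subadult and 4.23 against 6.23 RPKM in the adult. The bears differ more than the states in CACNA2D1, since both subadult libraries are above both adult ones.

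CACNA1C, the pore subunit of the L-type channel best known from heart and smooth muscle, had the largest mean difference of all members. It measured 17.8 RPKM in hibernation and 3.25 RPKM when active in the subadult, and 3.68 and 1.51 RPKM in the adult. Both hibernating libraries lie above both active ones, but the hibernating adult only just exceeds the active subadult. The subadult differed 5.49-fold and the adult 2.44-fold, with a mean log2 difference of 1.67 and an SE of 0.71 (limma, adjusted p = 0.565). The value rests on 1 transcript of 1599 bases with 1428 and 273 reads in the subadult and 319 and 108 in the adult. It is far below CACNA1S per length in every library. Of 8 smooth muscle markers, 3 were listed. Their summed level was 165 and 168 RPKM in the hibernating and active subadult and 261 and 217 RPKM in the adult. Most of this sum was SYNPO2 alone, at 156 and 157 RPKM in the subadult and 227 and 207 RPKM in the adult. MYLK was at 3.14 and 3.31 RPKM in the subadult and 6.85 and 3.45 RPKM in the adult. MYH11, the smooth muscle myosin, was at 5.44 and 7.02 RPKM in the subadult, where CACNA1C differed most, and at 27.6 and 6.49 RPKM in the adult. The other 5 markers, among them ACTA2 and TAGLN, were not analysed here.

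CASQ2, the calsequestrin of slow and cardiac muscle that buffers calcium in the store, was at 4.33 and 4.32 RPKM in the hibernating subadult and adult. When active it was at 2.60 and 1.76 RPKM. The hibernating libraries are nearly equal and the groups do not overlap, with folds of 1.67 and 2.46 and a mean log2 difference of 0.87 (SE 0.25). Limma's adjusted p for it was 0.541. Of the 5 slow fibre genes listed, MYH7B and TPM3 were also higher in both bears, with log2 differences of 1.96 and 1.48 and of 0.17 and 0.62 in subadult and adult, while MYH7 had -0.06 and -0.51, MYOZ2 -0.82 and -0.21, and MYL3 0.45 and -0.05. The part of slow fibres in the CASQ2 values was not tested.

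SRL, sarcalumenin, a calcium-binding protein of the sarcoplasmic reticulum, was at 31.5 and 35.7 RPKM in hibernation and at 22.1 and 23.0 RPKM when active in the subadult and adult. Its states do not overlap, and the log2 differences of 0.50 and 0.62 are alike in the bears (mean 0.56, SE 0.20, limma adjusted p = 0.549). HRC, the histidine-rich calcium-binding protein of the store, was at 214 and 185 RPKM hibernating and 164 and 155 RPKM active. A second, short HRC transcript at a mean of 2.43 RPKM had a log2 difference of -0.33, and the mean over both transcripts was -0.01. TRDN, triadin, which anchors calsequestrin at the release channel, was at 372 and 355 RPKM hibernating against 285 and 324 RPKM active. That transcript has 350 bases. The other, of 662 bases, was at 18.7 and 19.65 RPKM hibernating against 14.6 and 16.4 RPKM active. In HRC and TRDN the states also do not overlap in the values as deposited, with log2 differences of 0.32 (SE 0.24) and 0.26 (SE 0.25).

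JPH1, junctophilin 1, which holds the T-tubule and store membranes together, was at 14.4 and 14.3 RPKM in the hibernating and active subadult and at 15.7 and 18.6 in the adult. ITPR1, the inositol trisphosphate receptor, had 5.07 RPKM active and 3.02 hibernating in the subadult, but 3.79 active and 5.75 hibernating in the adult. The bears thus oppose each other in ITPR1 by more than 1.5-fold each way.

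**Figure D2:**
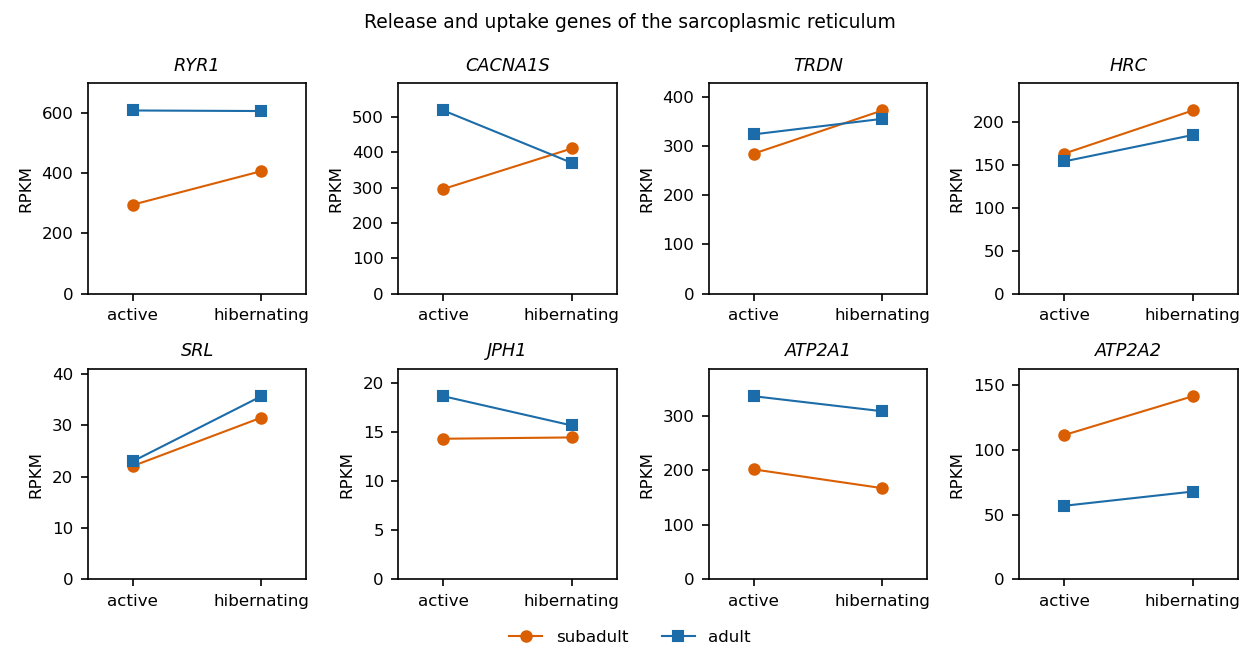
RPKM (y axis, from 0) of 8 genes of release and uptake in the active and hibernating library of the subadult (circles) and the adult (squares). TRDN, HRC and SRL are higher in hibernation in both bears, although TRDN only in the values as deposited, RYR1 and CACNA1S are not, and the bears stand apart in ATP2A1 and ATP2A2.

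Calcium uptake and entry held 6 genes, of which 3 were higher in both bears, 1 was lower in both and 2 differed in direction. Their median log2 difference was 0.06, and -0.09 and -0.13 with median-ratio and upper-quartile scaling, so no direction can be given. The SERCA pumps differed more between the bears than between the states. ATP2A1, the fast SERCA, was at 167 and 202 RPKM in the hibernating and active subadult and at 308 and 336 RPKM in the adult, a mean log2 difference of -0.20 with an SE of 0.41. ATP2A2, the slow SERCA, was at 142 and 112 RPKM in the subadult and 67.9 and 56.9 RPKM in the adult, with 0.30 and an SE of 0.47.

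ATP2A1 per ATP2A2 was 1.18 in hibernation and 1.81 when active in the subadult, and 4.54 and 5.90 in the adult, so it was lower in hibernation in both bears. The myosin ratio of slow to fast fibres, MYH7 per MYH1, was 1.40 and 0.62 in the subadult and 0.17 and 0.24 in the adult. MYH2, another fast myosin, was higher in both bears, at 3841 against 2755 RPKM in the subadult and 3863 against 3493 in the adult. MYH7 itself was lower in both, at 2872 against 3004 RPKM and 1295 against 1839. MYH7 per MYH2 was thus lower in hibernation in both bears. Of the fast fibre list 4 of 10 symbols were listed, with 1 higher and 3 lower in both bears, and a summed level of 7273 and 9859 RPKM in the hibernating and active subadult and 13747 and 14268 RPKM in the adult. Of the slow fibre list 5 of 9 were listed, with 2 higher and 2 lower in both, and sums of 6521 and 5877 RPKM, then 2729 and 3124 RPKM. The part of the fibre mix of each biopsy in the SERCA values was not tested. All 5 transcripts of ATP2A2 were higher in both bears and all 3 of ATP2A1 lower. The level of ATP2A1, and so the size of its ratio to ATP2A2, depends on the transcript taken. Its transcript of 1201 bases was at 547 and 666 RPKM in the hibernating and active subadult and at 1009 and 1095 in the adult. That of 657 bases ranged from 55.0 to 123 RPKM.

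ATP2B4, the calcium pump of the plasma membrane, was level, at 5.76 and 5.33 RPKM in the hibernating and active subadult and 3.34 and 3.67 RPKM in the adult. STIM1, the store sensor of store-operated entry, was at 5.23 against 4.69 RPKM and 6.73 against 6.25 RPKM, with log2 differences of 0.14 and 0.10 that turned negative on average with both other scalings. ORAI1, the entry channel it opens, was at 2.25 and 2.21 RPKM in hibernation and 1.31 and 1.60 RPKM when active. The ORAI1 states do not overlap (mean log2 difference 0.49, SE 0.19, limma adjusted p = 0.549), but its transcript of 435 bases held 30 to 52 reads per library, and the counting interval of the adult fold ran from 0.87 to 2.23. ORAI3, a second entry channel, was at 2.03 against 3.73 RPKM in the subadult and 3.08 against 2.72 RPKM in the adult.

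Ion channels contributed 15 genes, most of them rare, with a median of 3.17 RPKM over the 4 libraries and 9 of the 15 below 2 RPKM in at least 1 library. In both bears 5 were higher and 2 lower, and 8 differed in direction. The median log2 difference of 0.08 became -0.06 and -0.10 with median-ratio and upper-quartile scaling. Among the 10 potassium channel genes 3 were higher and 2 lower in both bears.

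KCNJ11, the pore of the ATP-sensitive potassium channel that couples membrane voltage to energy state, was at 4.83 and 5.10 RPKM in hibernation and 1.31 and 3.15 RPKM when active. Both of its transcripts were more than 1.5-fold higher in both bears, the leading one by 3.68-fold and 1.62-fold. KCNQ5, an M-type potassium channel, was at 6.74 and 4.06 RPKM in hibernation and 3.60 and 3.24 RPKM when active. In both genes the states do not overlap.

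CLCN3, a chloride-proton exchanger of endosomes, had the smallest SE of the 6 genes. Subadult and adult stood at 3.70 and 3.59 RPKM in hibernation and at 1.12 and 1.42 RPKM when active. Its folds were 3.30 and 2.52, with counting intervals (95%, exact Clopper-Pearson, counting error only) of 2.55 to 4.33 and 1.96 to 3.27. The mean log2 difference was 1.23 with an SE of 0.21, and the unadjusted p of 0.00113 became 0.541 after limma's adjustment over all transcripts. CLCN1, the chloride channel that sets the resting conductance of muscle, was at 2.97 and 2.35 RPKM in the subadult and 3.50 and 3.86 RPKM in the adult, hibernating and active. CLCN7, the lysosomal exchanger, ranged from 5.65 to 6.38 RPKM over the 4 libraries.

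SCN4A, the sodium channel of the muscle action potential, was at 10.4 and 11.3 RPKM in hibernation and 7.47 and 10.4 RPKM when active, and its log2 difference was 0.29 with an SE of 0.24. Of its 6 transcripts 5 were higher in both bears. The inward rectifier listed as KCNJ12.1 was the most abundant channel of the class, at 55.6 and 57.8 RPKM in the hibernating and active subadult and 78.5 and 106 RPKM in the adult, lower in both. Its reads cannot be separated with confidence from those of near-identical inward rectifier genes. KCNAB1, a beta subunit of potassium channels, was also lower in both, at 1.03 against 2.49 RPKM and 2.37 against 2.72 RPKM, from 22 to 56 reads per library.

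In 6 more channel genes the bears differed in direction. KCNN3, a small-conductance calcium-activated potassium channel, was at 4.17 and 1.42 RPKM in the hibernating and active subadult but at 2.50 and 2.69 RPKM in the adult. KCNT1, a sodium-activated potassium channel, had 5.06 RPKM active and 2.41 hibernating in the subadult, but 3.46 active and 5.48 hibernating in the adult. KCNN1, KCNH2 and SCN2A ranged from 1.16 to 3.82 RPKM, and their mean log2 differences of -0.09 to -0.23 were smaller than their SE. The voltage-gated channel KCNH4 was at 3.05 and 3.07 RPKM in the subadult and 2.74 and 1.47 RPKM in the adult.

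**Figure D3:**
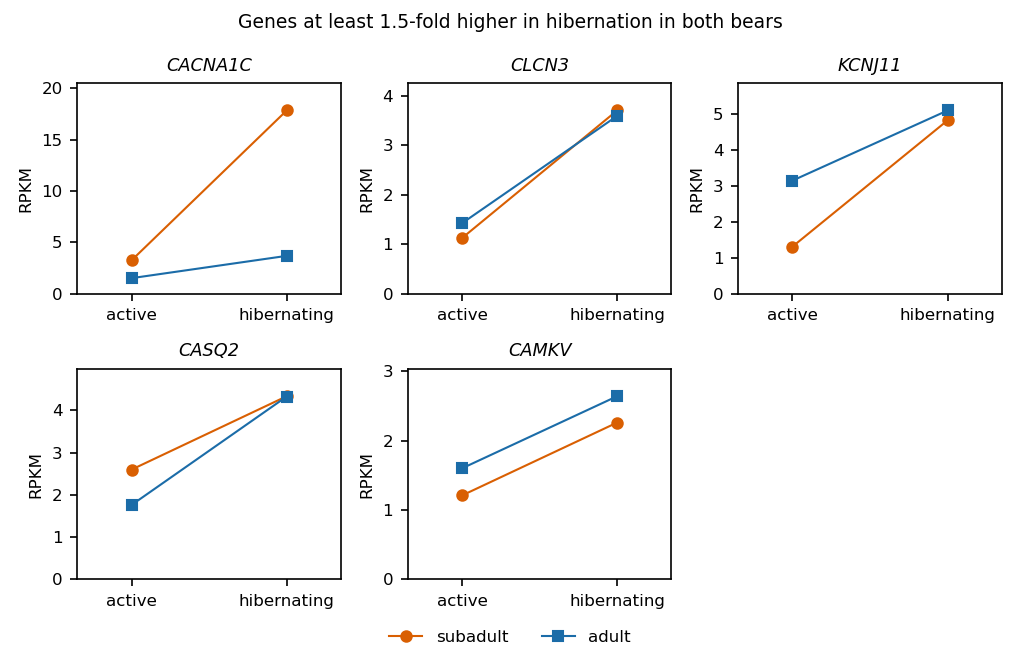
RPKM (y axis, from 0) in the active and hibernating library of the subadult (circles) and the adult (squares) for 5 of the 6 genes at least 1.5-fold higher in hibernation in both bears. CLCN3 and CASQ2 have nearly the same hibernating level in both bears, while CACNA1C is highest in the hibernating subadult.

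Of the 6 genes of the sodium-potassium pump, 1 was higher and 1 lower in both bears, and 4 differed in direction, while either other scaling gave 1 higher and 3 lower. Among the beta subunits, which carry the pump to the membrane, ATP1B2 was at 73.1 and 59.6 RPKM in the subadult and 63.2 and 71.9 RPKM in the adult, hibernating and active. ATP1B3 was higher in both, at 3.81 against 2.76 RPKM and 3.14 against 2.51 RPKM, without overlap of the states. ATP1B4, a muscle-specific relative of the beta subunits, ranged from 27.6 to 36.2 RPKM.

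Calmodulin signalling had 4 of 6 genes higher in both bears, 1 lower and 1 of mixed direction, with a median log2 difference of 0.21. After median-ratio scaling 2 were higher and 2 lower, and after upper-quartile scaling 1 and 2. CALM3, 1 of the genes for calmodulin, was at 114 and 135 RPKM in hibernation and 102 and 112 RPKM when active. CAMK2G and CAMK2A, calcium-calmodulin-dependent kinases, were at 3.78 and 3.73 against 2.73 and 3.39 RPKM and at 8.19 and 8.12 against 6.20 and 7.83 RPKM. In these 3 genes the states do not overlap in the values as deposited. Yet the mean log2 differences of 0.21 to 0.26 are close to the SE of 0.22 to 0.23. CALM3 came to 0.05 and 0.01 with the other scalings.

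CAMKV, a kinase-like protein that binds calmodulin and is best known from brain, was at 2.26 and 2.64 RPKM in hibernation and 1.21 and 1.60 RPKM when active. Its transcript of 503 bases held 32 to 72 reads, and the counting intervals of the folds ran from 1.19 to 2.98 and from 1.09 to 2.53. The calcineurin subunit PPP3R1 was the gene lower in both bears, by little, at 21.5 against 22.7 RPKM and 27.5 against 28.9 RPKM with log2 differences of -0.08 and -0.07. PPP3CA, the catalytic subunit, ranged from 5.89 to 7.16 RPKM with a mean log2 difference of 0.02.

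**Figure D4:**
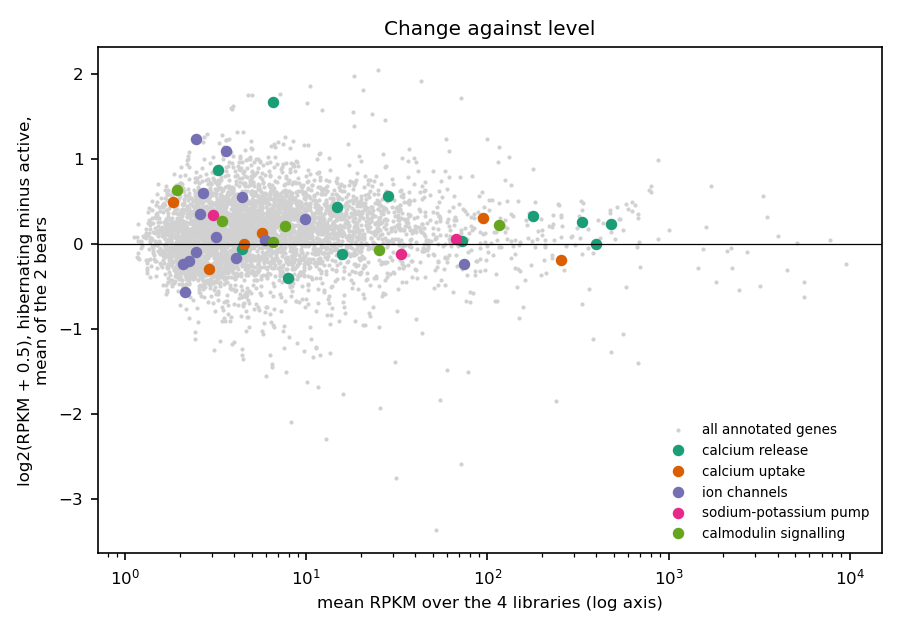
Mean log2 difference of the 2 bears between hibernating and active muscle (y axis) against the mean RPKM of the 4 libraries (x axis, log scale) for the annotated genes in grey and 41 of the 45 member genes coloured by class. The members 1.5-fold higher in both bears lie below 10 RPKM, and SRL, at a mean of 28.1 RPKM, has the largest difference, 0.56, of the members drawn above 10 RPKM.

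Among the members, the differences were larger where the level was low. In the 28 member genes below 10 RPKM the median size of the subadult log2 difference was 0.60, and in the 17 at 10 RPKM or more it was 0.28, while for all annotated genes it was 0.35 and 0.36. In the adult the corresponding medians were 0.28 and 0.18 for members and 0.24 and 0.27 for all genes. The 95% counting interval of the fold, from the recovered reads, lay apart from 1 in 39 of the 45 genes (86.7%) in the subadult and in 29 (64.4%) in the adult, against 75.0% and 63.3% of all annotated genes.

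Of the 6 genes 1.5-fold higher in both bears, CACNA1C, CASQ2 and CLCN3 met this limit after median-ratio scaling, where 2.05% of all genes did, and CACNA1C and CLCN3 after upper-quartile scaling, where 1.87% did. When the active subadult library was left out and both hibernating libraries were set against the active adult, 6 genes met it, among them CACNA1C, CASQ2, CLCN3, KCNJ11 and KCNH4, against 8.0% of all genes. CAMKV was the only one of the 6 that did not.

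Other genes of calcium handling, taken from a list of 69 symbols for store regulators, exchangers, mitochondrial uptake, coupling proteins and calcium-dependent effectors, were found for 25 symbols. Of these 5 were higher and 7 lower in both bears and 13 differed in direction, with a median log2 difference of 0.05. Limma's adjusted test called 0 of them, and 1 reached a score of 0.8, PHKG1, the catalytic subunit of muscle phosphorylase kinase, with 6.47 and 12.1 RPKM hibernating and 19.8 and 15.5 RPKM active.

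The small inhibitors of SERCA took opposite directions in the bears. SLN, sarcolipin, was at 1552 and 2474 RPKM in the hibernating and active subadult and at 2897 and 1939 RPKM in the adult. PLN, phospholamban, was at 106 and 124 RPKM in the subadult and 64.0 and 42.2 RPKM in the adult. RCAN2, a regulator of calcineurin, was higher in both, at 39.8 and 25.2 RPKM in hibernation against 22.2 and 16.8 RPKM when active.

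The remaining markers of other cell types were few in the table. For endothelium 4 of 10 symbols were listed, with sums of 32.9 and 37.1 RPKM in the hibernating and active subadult and 27.7 and 21.9 RPKM in the adult. For fat cells 3 of 9 summed to 71.6 and 373 RPKM, then 111 and 92.7 RPKM, and for connective tissue 4 of 8 to 277 and 337 RPKM, then 230 and 160 RPKM. The nerve list was represented by S100B alone of 10 symbols, at 2.12 and 13.1 RPKM in the subadult and 3.44 and 1.19 RPKM in the adult, and the blood list by CD68 alone of 8, at 6.41 and 3.94 RPKM and at 7.12 and 3.28 RPKM. CD68 was higher in hibernation in both bears, as CASQ2, CLCN3 and KCNJ11 were, and the part of these cells in the member values was not tested.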

How the data were processed

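Gastrocnemius RNA was poly(A)-selected and sequenced single-end on an Illumina GAIIX by the authors, from full-length cDNA. The paper describes a nuclease step that removes cDNA of abundant transcripts for libraries of another platform. Whether the single-end cDNA also went through it is not stated. The authors aligned the reads with SOAP2 (up to 2 mismatches) to a de novo assembly annotated against human proteins. The deposited values are RPKM with transcript lengths. How reads fitting several transcripts were assigned is not given in the sources used here, nor is strand. Bears were named subadult and adult by matching the 4 values of each transcript to the study's supplementary table (9072 of 9092 identical, 0 with bears exchanged). In each library 95.4% to 97.0% of low values of short transcripts corresponded to whole reads (within 0.1 read), which gave the depths. The recovered reads also gave the 95% counting intervals of the folds within each bear. Beyond these intervals no count test was run.

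Limma 3.58.1 (R 4.3.3, trended prior) was fitted to log2(RPKM + 0.5) of 9093 annotated transcripts, 2 hibernating against 2 active libraries. Each animal gave 1 library per state and so pairs them (r = 0.356 between the bear's deviations in the 2 states). A fit with this replicate block was an alternative. The NOISeq-like score used the differences between bears within a state. Both were tested on simulated data. Each gene was described by its leading transcript, that of the highest product of mean RPKM and length, and member genes are named except a few that are not reported here, which stay in the counts. The bears are separate animals, but p-values over 2 libraries per state reflect this spread only. Members and lists were chosen with earlier results of these data known. Python 3.11.15, pandas 2.3.3, numpy 2.4.6 and matplotlib 3.10.9 were used. Alternatives covered pseudocounts of 0.1 and 1, 2 scalings, a mean RPKM of 5, the prior, the score threshold, the mean over transcripts and each library or bear left out.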

Additional observations from a re-analysis of the deposited data

Results flagged for a closer look

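ITPR1 and KCNT1 moved at least 1.5-fold in opposite directions in the 2 bears. ITPR1, the inositol trisphosphate receptor, was lower in hibernation in the subadult but higher in the adult, whose log2 difference was greater by 1.204. For KCNT1, a sodium-activated potassium channel with the same pattern, the excess was 1.53. With 1 library per bear and state the difference between the bears was not tested. Such opposition occurred in 2 of the 45 member genes (4.44%) and in 68 of all 4873 annotated genes (1.40%). Both subadult values rest on the active subadult library, which also stood apart in FASN, SCD and COL1A1.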

How the results depend on the processing

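The count of members with an unadjusted p under 0.05 (8) was 4 with upper-quartile scaling (4.21%, all transcripts 6.93%), 1 of 59 tested at a mean RPKM of at least 5 (1.69%, all 11.5%), and 3 to 14 when libraries were left out in turn. The adjusted count was 0 under all alternatives run except without the hibernating adult library (range 0 to 3). With the replicate block the adjusted count stayed 0, so the pairing changed no adjusted call. The unadjusted count went from 8 to 9 (9.47%), and the share over all transcripts from 9.08% to 13.5%. Both hibernating libraries lay above both active ones in 14 transcripts with median-ratio and 13 with upper-quartile scaling and in 11 at a mean RPKM of at least 5, instead of 27, and below in 14 with either scaling, instead of 6. Of all transcripts 19.0%, 17.1% and 38.4% then lay above, and 18.1% and 20.5% below. Genes higher in both bears numbered 12 with upper-quartile scaling and 10 (of 24) at the RPKM minimum, instead of 19, and genes lower in both 13 and 16 with the scalings, instead of 6. The genes 1.5-fold higher in both, 6 as deposited, were 3 and 2 with the scalings and 6 to 8 without one library, where 6.16% to 11.2% of all genes met the limit against 5.21% as deposited; these settings were chosen after seeing the data. At a score of 0.9 the 2 calls became 1. Median log2 differences of release genes fell from 0.24 to 0.040 with upper-quartile scaling, 0.078 with median-ratio scaling and 0.13 as a mean over transcripts, and were 0.15 to 0.42 in one bear alone. Those of uptake genes (0.056) were 0.059 and 0.053 with pseudocounts of 0.1 and 1, -0.094 and -0.13 with the scalings, 0.12 at the RPKM minimum, 0.050 as a mean over transcripts, and 0.12 to 0.13 in one bear alone. Those of channel genes (0.080) were -0.064 and -0.096 with the scalings, 0.045 at the RPKM minimum and 0.12 to 0.15 in one bear. The scalings turned the sign of 6 of the 45 genes each, none of them 1.5-fold in both bears.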

Other observations

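The bears could also be set apart from each other. In 20 of the 45 member genes (44.4%) both libraries of one bear lay above both of the other, against 38.6% of all annotated genes. ATP2A2, CACNA2D1 and ATP2B4 were higher in the subadult, with log2 differences of 1.01, 0.96 and 0.59 averaged over the states, and RYR1, ATP2A1 and KCNN1 were higher in the adult, with subadult minus adult values of -0.81, -0.81 and -0.95. With 1 bear per age, these values describe 2 animals. In 6 of the 20 member genes with several transcripts the transcripts disagreed in the sign of their difference between states, among them CACNA1S, CAMK2A, HRC, KCNH2 and PPP3CA.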
